A study of Homo sapiens with 13 samples.

Results

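RNaseH1-only loci are stretches of the genome at which DNA-RNA hybrids were called in U2OS cells after knockdown of RNaseH1 and not called after knockdown of REXO4 or in control cells. They were chosen as the peaks of the siRNaseH1 list on chromosomes 1 to 22 and X that no siREXO4 peak and no siCtrl peak overlapped by even 1 bp. There were 13579 such loci among 20954 siRNaseH1 loci, a share of 64.8% (95% Wilson interval 64.2% to 65.4%), and among 38099 peaks of all 3 lists. The loci were selected on the peak calls of the 3 lists, so their peak values are given as a description and no test was made of them.

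The groups were U2OS cells transfected with an siRNA against RNaseH1 (siRNaseH1), with an siRNA against REXO4 (siREXO4) or with a control siRNA (siCtrl). U2OS is an established human osteosarcoma line, and no other treatment is given in the labels. DNA-RNA immunoprecipitation sequencing (DRIP-seq) was performed with S9.6, an antibody against DNA-RNA hybrids. There were 13 libraries, of which 9 were S9.6 IPs (3 for each siRNA), 3 were inputs and 1 was an IgG control of siCtrl cells. The authors merged the 3 IP libraries of each transfection before calling peaks, so that each list is a single pooled sample with no replicate error, and the intervals below cover counting error only.

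An R-loop forms when a transcript pairs with its DNA template and leaves the other DNA strand unpaired. RNaseH1 is an endonuclease that cuts the RNA strand of such hybrids, in the nucleus and in mitochondria, and REXO4 belongs to a family of predicted exonucleases. Hybrids are known to form at the starts and ends of transcribed genes and to be favoured where the non-template strand is rich in G.

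The strand rich in G can be read directly in promoters that lie wholly inside an RNaseH1-only locus. The windows below are RefSeq promoter windows of GRCh38.p14, each of 300 bases around a transcription start, written 5′ to 3′ on the strand of the gene. They are the wholly covered windows with the highest fold enrichment among those that could be printed, and the capitals mark every run of GGGG or CCCC.
ENPP1, chr6:131807770-131808069, + strand: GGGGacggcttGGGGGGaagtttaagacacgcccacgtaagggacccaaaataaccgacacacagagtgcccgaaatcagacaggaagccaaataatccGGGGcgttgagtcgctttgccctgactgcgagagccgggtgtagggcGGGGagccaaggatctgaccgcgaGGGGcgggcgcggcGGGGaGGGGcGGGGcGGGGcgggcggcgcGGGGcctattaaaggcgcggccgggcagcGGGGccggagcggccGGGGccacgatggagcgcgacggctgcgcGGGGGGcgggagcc
PDLIM5, chr4:94451692-94451991, + strand: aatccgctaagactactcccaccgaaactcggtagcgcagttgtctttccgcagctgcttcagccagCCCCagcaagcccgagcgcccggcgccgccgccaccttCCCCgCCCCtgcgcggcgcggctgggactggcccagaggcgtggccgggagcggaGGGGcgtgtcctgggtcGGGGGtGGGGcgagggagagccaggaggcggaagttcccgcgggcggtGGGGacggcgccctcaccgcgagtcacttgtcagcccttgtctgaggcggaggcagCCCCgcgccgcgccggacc
THRB, chr3:24494801-24495100, - strand: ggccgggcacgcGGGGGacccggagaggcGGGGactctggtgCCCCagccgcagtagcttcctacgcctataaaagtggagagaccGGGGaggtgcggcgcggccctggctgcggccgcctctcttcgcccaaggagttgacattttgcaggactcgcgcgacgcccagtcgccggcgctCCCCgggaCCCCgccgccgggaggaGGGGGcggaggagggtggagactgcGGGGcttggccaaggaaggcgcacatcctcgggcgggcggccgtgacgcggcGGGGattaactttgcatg
THRB, chr3:24495659-24495958, - strand: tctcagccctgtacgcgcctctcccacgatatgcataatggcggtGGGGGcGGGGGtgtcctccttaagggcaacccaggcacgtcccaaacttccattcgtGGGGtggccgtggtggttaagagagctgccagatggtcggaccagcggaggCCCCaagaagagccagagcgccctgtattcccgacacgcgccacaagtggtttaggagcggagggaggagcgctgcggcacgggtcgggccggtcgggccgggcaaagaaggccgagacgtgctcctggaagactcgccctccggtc

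ENPP1 encodes an ectoenzyme that makes pyrophosphate, PDLIM5 a cytoskeletal scaffold with PDZ and LIM domains, and THRB a thyroid hormone receptor. The ENPP1 window held 17 overlapping matches to GGGG and 0 to CCCC on the gene's strand. PDLIM5 held 5 GGGG and 4 CCCC matches. A single RNaseH1-only locus covered both THRB windows, which held 8 and 5 GGGG matches and 3 and 1 CCCC matches. The excess of G over C as a share of both was 0.28 in ENPP1 and 0.023 in PDLIM5, so these promoters did not share 1 degree of strand asymmetry.

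Outside chromosome 8, for which no promoter windows were available, few RNaseH1-only loci touched a promoter. Of 22132 windows of protein-coding genes, 538 (2.43%) were overlapped by an RNaseH1-only locus and 79 lay wholly inside one. The median GC content was 69.7% in the 538 windows, 68.3% in windows overlapped by siRNaseH1 loci shared with siREXO4, and 62.3% in all windows. GGGG on the gene's strand was present in 93.1% of the windows at RNaseH1-only loci, against 88.4% at loci shared with siREXO4 and 81.1% of all windows. CCCC on the same strand was present in 85.1%, 86.0% and 78.8% of these sets, and G exceeded C in 59.5%, 57.0% and 54.8%. TATAAA, the core of the TATA box, was present in 2.04%, 2.26% and 6.47%. GGGG on 1 strand is CCCC on the other, so both strands are covered by these shares. A match describes these letters only.

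The RNaseH1-only loci were narrower and less enriched than the siRNaseH1 loci that another list also held. Fold enrichment is the authors' own value, the coverage at the summit over the local background of the peak caller. Its median was 4.86 at RNaseH1-only loci (quartiles 4.20 and 5.75), 6.16 at the 5332 loci shared with siREXO4 and not siCtrl, 5.34 at the 533 shared with siCtrl and not siREXO4, and 8.64 at the 1510 shared with both. The median width was 349 bp at RNaseH1-only loci, against 548.5, 437 and 843.5 bp in the same 3 classes. Loci found in the siREXO4 list alone had a median fold of 4.55 and a median width of 311 bp. Those found in the siCtrl list alone had 4.72 and 300 bp. Low folds and narrow widths were thus not particular to RNaseH1-only loci. RNaseH1-only loci made up 51.0% of the base pairs of the siRNaseH1 list.

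**Figure D1:**
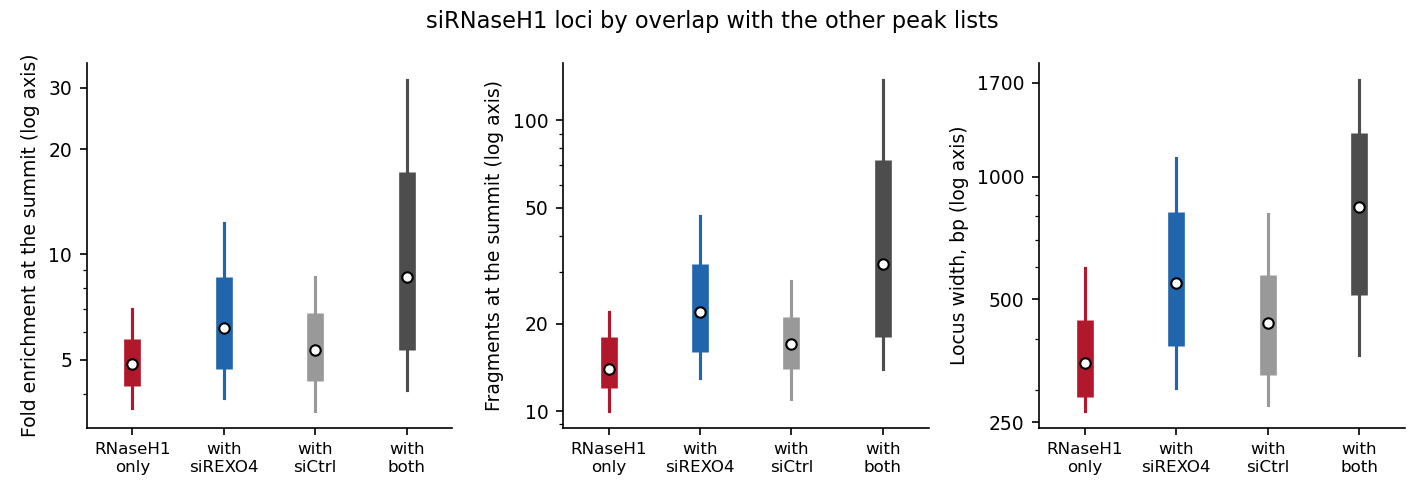
Fold enrichment, recovered fragments at the summit and width in bp (log axes) of siRNaseH1 loci by the other lists that overlap them; circles are medians, thick bars the quartiles and thin lines percentiles 10 to 90. RNaseH1-only loci have the lowest medians in all 3 panels (fold 4.86, 14 fragments, 349 bp), and loci shared with both lists the highest.

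The share of RNaseH1-only loci changed along the siRNaseH1 list. When the list was ordered by fold and divided into 10 equal bins, 75.3% of bin 1 (the lowest folds) and 78.9% of bin 3 were RNaseH1-only. The share was 60.2% in bin 8 and 13.4% in bin 10, where 280 of 2096 loci were RNaseH1-only. The strongest siRNaseH1 loci were thus mostly ones that another list held too.

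A locus missing from another list may have had coverage just below that list's limit. Fragments at the summit were worked out from the deposited fold and p-value, and their median was 14 at RNaseH1-only loci (quartiles 12 and 18) against 22 at loci shared with siREXO4. The genome-wide background was 1.36 fragments in siRNaseH1, 1.41 in siREXO4 and 1.28 in siCtrl, and peaks at that background needed at least 7 fragments in each list. Scaled by these backgrounds, the median RNaseH1-only locus had 2.08 times the limit of the siREXO4 list and 1.88 times that of the siCtrl list. At 6474 loci (47.7%) coverage was at least 2 times both limits. With the limit taken at the local background of each locus, an alternative chosen after seeing the data, 1838 loci (13.5%) were at least 2 times above both. How much signal the other transfections had at these places was not analysed here, and absence from a list is not absence of hybrids.

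RNaseH1-only loci lay close to one another. The median gap from an RNaseH1-only locus to the next was 6672 bp, and 57.4% had another within 10000 bp. REXO4-only loci, defined in the same way from the siREXO4 list, numbered 5464 and had a median gap of 77007 bp, with 17.7% within 10000 bp. The part of the smaller number of loci in these wider gaps was not tested. The nearest peak of either other list was at a median of 12939 bp, and 4.78% of RNaseH1-only loci had one within 500 bp. Just inside the rule, 52 loci had another list's peak less than 50 bp away, with a median fold of 4.67. Just outside it, 50 loci were overlapped by at most 50 bp, with a median fold of 4.31.

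Most RNaseH1-only loci had their summit in the interior of a gene. Of the 13579 summits, 64.6% (63.7% to 65.4%) lay inside an annotated gene and more than 2 kb from its boundaries, 24.5% lay within 2 kb of a boundary and 10.9% lay between genes. Over the whole siRNaseH1 list, 53.8% were interior and 35.6% near a boundary. The share of the genome that lies in gene interiors was not worked out. Among loci shared with siREXO4, 31.3% (30.1% to 32.5%) were interior and 60.9% were near a boundary. The share within 2 kb of a known start was 7.22% (6.80% to 7.67%) for RNaseH1-only loci and 39.4% (38.1% to 40.8%) for loci shared with siREXO4, while the share near a known gene end was 9.02% and 7.24%. A further 8.26% of RNaseH1-only loci and 14.2% of loci shared with siREXO4 lay near a boundary of a gene with no known strand. Shares near a known start or end are thus minimum values. The siRNaseH1 loci shared with siCtrl and not siREXO4 were placed much like the RNaseH1-only loci. Of them, 62.7% (58.5% to 66.7%) were interior, 1.69% near a known start and 10.3% near a boundary with no known strand.

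RNaseH1-only loci were also less often near a known start than loci of like fold shared with siREXO4, a difference that was not tested. Between folds of 4 and 5, 6.71% of RNaseH1-only summits were near a known start, against 34.0% of those shared with siREXO4. REXO4-only loci were near a known start in 14.1%, interior in 49.2% and between genes in 22.4%. Ctrl-only loci, found in the siCtrl list alone, were near a known start in 2.45% and interior in 55.3%. Few known starts and many interior summits were thus not a trait of RNaseH1-only loci alone. A boundary of a gene with no known strand was near 9.37% of REXO4-only and 8.13% of Ctrl-only summits. Exons, introns and untranslated regions were not distinguished, since the gene table used here gives outer gene boundaries only.

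**Figure D2:**
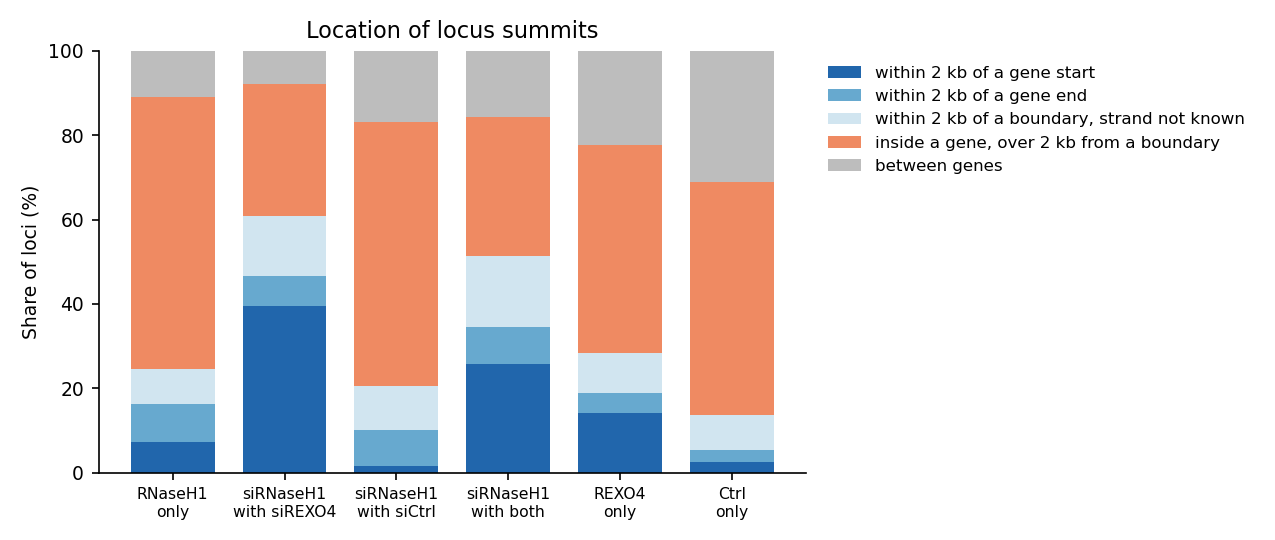
Share of locus summits (%) by location, for RNaseH1-only loci, the siRNaseH1 loci shared with other lists, and the REXO4-only and Ctrl-only loci. Interior summits make up 64.6% of RNaseH1-only loci and 31.3% of loci shared with siREXO4, where 39.4% are near a known gene start.

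Within protein-coding genes of at least 10 kb with a known strand, RNaseH1-only summits were spread along the inner body. The inner body leaves out the 2 kb next to each of the gene's own boundaries. Summits near those boundaries, where the classes differed most, thus do not enter this comparison. With the inner body divided into 10 equal bins from start to end, bin 1 held 12.7% of 7659 summits, bin 5 held 7.66% and bin 10 held 13.9%. The median position was 0.517 of the inner body. Loci shared with siREXO4 gave 14.6%, 8.33% and 14.8% of 1512 summits in the same bins. The intervals of these classes overlap in all 3 of these bins.

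**Figure D3:**
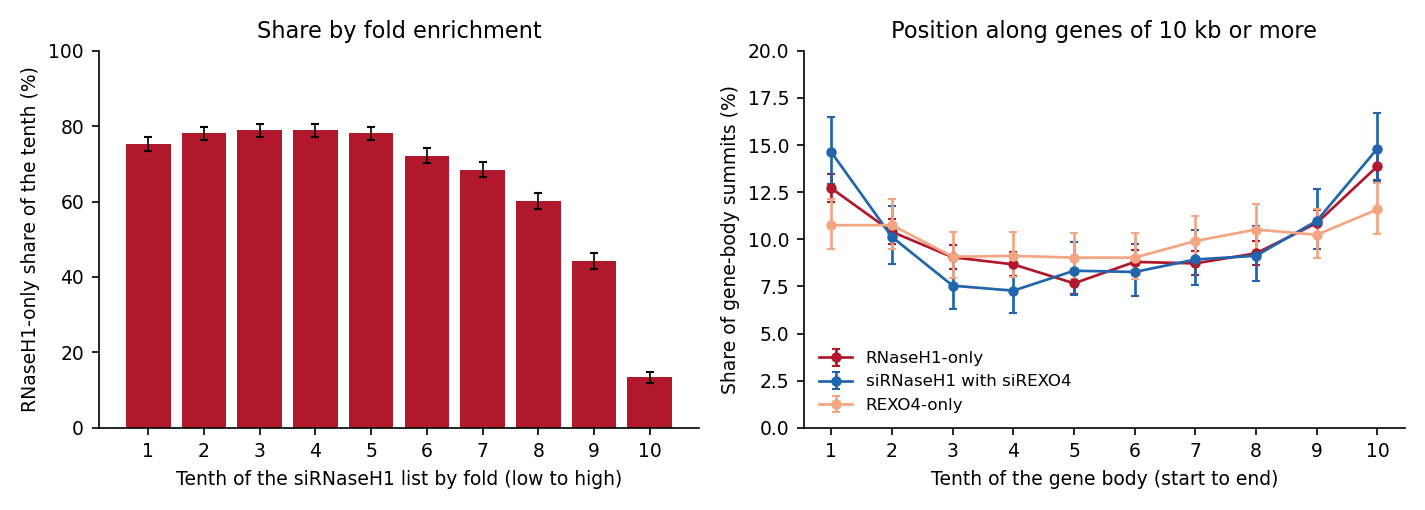
Left, share of each of 10 bins of the siRNaseH1 list, ordered by fold, that is RNaseH1-only (%). Right, share of gene-body summits (%) in each of 10 bins along genes of 10 kb or more, leaving out 2 kb at each boundary. Bars and whiskers on the left show the share with its 95% Wilson interval, and the share is 13.4% in bin 10; on the right RNaseH1-only loci range from 7.66% in bin 5 to 13.9% in bin 10.

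The locus with the highest fold among RNaseH1-only loci lay inside RETREG1, which encodes a receptor for the autophagy of endoplasmic reticulum. It spanned chr5:16528123-16529006 (hg38), with a fold of 38.4 and 109 fragments. The nearest siREXO4 peak was 182.6 kb away. The locus at the ENPP1 start, chr6:131807654-131808636, had a fold of 28.4 and 104 fragments, and the nearest siREXO4 peak was 128.6 kb away. The PDLIM5 locus had a fold of 24.8 and 113 fragments, and a siCtrl peak lay 3.62 kb from it. These 3 loci stood far from siREXO4 peaks.

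The next in fold lay in CUX2 (22.7), which encodes a homeobox transcription factor, CCT2 (21.2), a subunit of the cytosolic chaperonin, and PAQR3 (19.1), a Golgi membrane protein. SERPINB9, an inhibitor of granzyme B, had a fold of 19.0, and EIF3M, a subunit of translation initiation factor 3, had 18.7. HSP90B1, the HSP90 of the endoplasmic reticulum, had 18.2 and PPP2R2A, a regulatory subunit of protein phosphatase 2A, 17.8. Distance from other peaks varied among them. The EIF3M locus lay 1.19 kb from a siREXO4 peak and the CUX2 locus 211.8 kb from one. The 3 widest loci lay in LRBA (3183 bp), SCFD1 (3036 bp) and TEAD3 (2674 bp), with folds of 8.06, 10.2 and 9.02.

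By gene, 5747 of 19974 protein-coding genes (28.8%) held at least 1 RNaseH1-only locus within the gene plus a flank of 2 kb. Of these genes, 60.3% also held a siREXO4 locus and 25.4% a siCtrl locus, against 33.7% and 12% of all protein-coding genes. A set of 2044 genes (10.2% of all) held RNaseH1-only loci and no locus of either other list. Longer genes up to 300 kb held one more often. The share was 9.97% of genes under 5 kb, 16.9% from 5 to 10 kb, 28.1% from 10 to 30 kb, 37.6% from 30 to 100 kb, 44.5% from 100 to 300 kb and 33.6% above, while the number of loci per 100 kb was 5.06 under 5 kb and 0.178 above 300 kb.

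Among the genes with the most RNaseH1-only loci, 8 are described, which held 14 to 26 each. The median fold of the loci of each gene was 4.98 to 5.75, beside 4.86 over all RNaseH1-only loci. VPS13B, a lipid transfer protein, held 26 over 864307 bp, with folds of 3.64 to 8.48, and GPHN, the synaptic scaffold gephyrin, held 24. RANBP2, a nuclear pore component, held 18 in an annotated span that includes near-identical copies, where reads may not be placed uniquely. TNKS, a poly-ADP-ribose polymerase, held 16. RIF1, which acts in replication timing and break repair, held 15 and a single siREXO4 locus.

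NOP58, a core protein of box C/D snoRNPs, held 14 over 37899 bp, with folds of 3.20 to 12.3. The strongest siRNaseH1 locus of NOP58, at a fold of 36.2 over its lower boundary, was one that both other lists held. The strongest RNaseH1-only one, chr2:202285926-202286707, lay inside the gene. SCMH1, a polycomb group protein, and OPA1, the dynamin-like GTPase of mitochondrial inner membrane fusion, held 14 each. OPA1 had no siREXO4 locus and 2 siCtrl loci, and its RNaseH1-only folds ranged from 4.30 to 9.76. The median local background at the loci of these 8 genes was 1.36 to 2.19 fragments, beside 2.02 over all RNaseH1-only loci. Genes with 10 or more numbered 39 (0.195%). Per length, among genes of 50 kb or more with at least 5 RNaseH1-only loci, the densest were MATR3, a nuclear matrix protein, with 20.8 loci per 100 kb, TMEM123 with 17.7, the hypoxia factor HIF1A with 17.1, WDR43 with 16.8 and the deubiquitinase USP36 with 16.6.

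Genes with 5 or more RNaseH1-only loci numbered 564 (2.82% of all genes). In 72 of them (12.8%) no other list had a locus. That share was lower than the 35.6% (2044 of 5747) among all genes holding an RNaseH1-only locus. Among the 72, the most loci, 13, were in FLNA on chromosome X, which encodes the actin crosslinker filamin A. FLNA was singled out after its values were seen. Its loci were 10555 bp wide in all, 1 of them reaching beyond the 2 kb flank, with folds of 4.30 to 16.5 and 11 to 38 fragments. The highest was chrX:154370849-154371343. TUFT1 held 12, the endoplasmic reticulum protein calumenin (CALU) 9, and UTP20, which acts in 18S rRNA processing, and POLR3A, the largest subunit of RNA polymerase III, 8 each; these were likewise chosen after their values were seen.

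**Figure D4:**
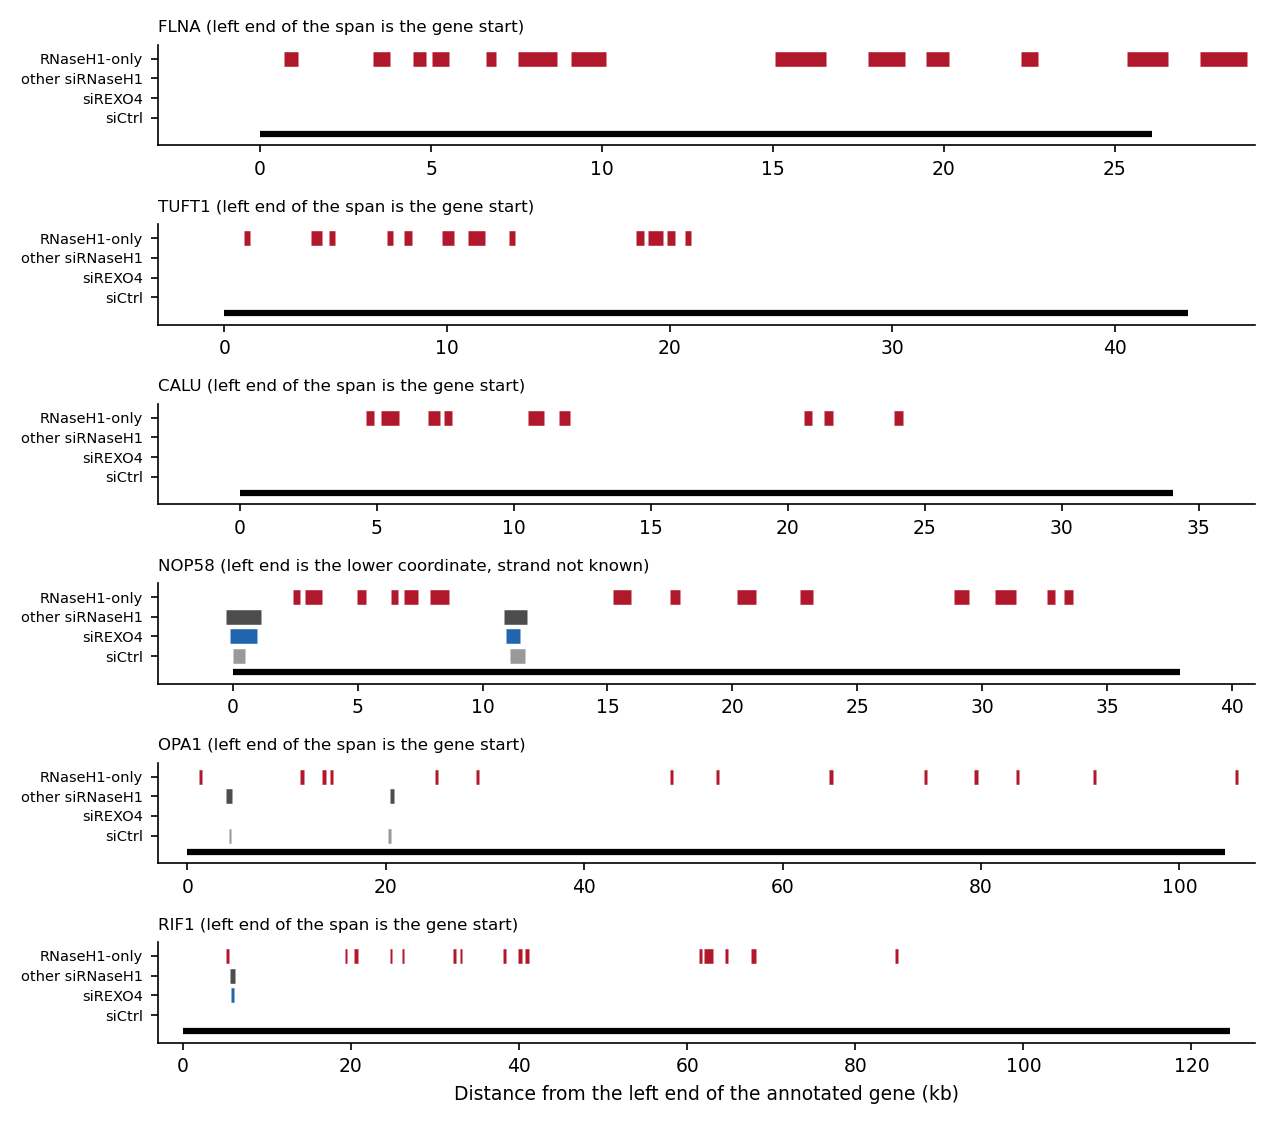
Positions of called loci along FLNA, TUFT1, CALU, NOP58, OPA1 and RIF1, as distance in kb from the left end of each annotated gene, with a row for each list. FLNA has 13 RNaseH1-only loci and no siREXO4 or siCtrl locus, and OPA1 has 14 with 2 siCtrl loci.

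RNASEH1 itself held 2 RNaseH1-only loci, with folds of 4.59 and 3.78, and 1 other siRNaseH1 locus that a siREXO4 peak overlapped. REXO4 held none. Peaks do not measure RNA or protein, so they do not check the knockdowns.

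Gene lists were set against the 28.8% of all protein-coding genes that held an RNaseH1-only locus, and no test was made of them. Of 22 lists, 19 had a higher share, with gene length not matched. The median length was 65.2 kb for importins and exportins and 59.1 kb for nuclear pore genes. Of all genes from 30 to 100 kb, 37.6% held an RNaseH1-only locus. The highest shares were those of nuclear transport receptors, translation factors, tRNA synthetases and chaperonins. Importins and exportins, which carry proteins and RNA through nuclear pores, held an RNaseH1-only locus in 21 of 24 genes, led by IPO7 (fold 11.0), IPO9 (10.5) and TNPO1 (9.85). The nuclear pore list had 20 of 30, led by POM121 (10.4). Translation initiation and elongation factors had 32 of 40, with EIF1AX at 14.8 and EIF3D at 14.3 after EIF3M. Cytosolic aminoacyl-tRNA synthetases, which charge tRNAs, had 16 of 20, with TARS1 at 9.33 and IARS1 at 9.26. The locus counted for KARS1 at 12.6 only reached the edge of its 2 kb flank, and its summit lay between genes. These lists were also above the background for siREXO4 loci, which 21 of 24 importins and exportins, 35 of 40 translation factors, 12 of 20 synthetases and 15 of 20 chaperonins and heat shock proteins held, against 33.7% of all protein-coding genes.

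Genes of ribosome production were also above the background. Ribosome biogenesis factors had 30 of 38, with NOP56, the partner of NOP58, at 13.8 and nucleophosmin (NPM1) at 13.1. Large-subunit ribosomal proteins had 34 of 45, with RPL38 at 14.3, RPLP1 at 12.6 and RPL5 at 12.3, and small-subunit ones 22 of 32, with RPS7 at 14.0. These ribosomal protein genes are short, with a median of 5.01 kb for the large-subunit list, and 9.97% of all genes under 5 kb and 16.9% of those from 5 to 10 kb held an RNaseH1-only locus. Ribosomal protein genes have many processed pseudogenes, so reads at their exons may be split between copies. Chaperonins and heat shock proteins had 16 of 20, and splicing factors and hnRNPs 31 of 44, with TRA2A at 12.1. In most of the gene lists, more genes held a siREXO4 locus than an RNaseH1-only locus. Among them were the large-subunit list (35 of 45), the small-subunit list (28 of 32) and the splicing list (41 of 44).

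R-loop processing factors had 25 of 38. DHX9, a DExH-box helicase active on hybrids and R-loops, held 10 RNaseH1-only loci with a highest fold of 11.2, and topoisomerase TOP1 held 6, the highest at 10.2. DDX17, a DEAD-box helicase, reached 10.2 as well. Genes of mitochondrial DNA replication and transcription had 15 of 24. Of these 24, 8 held RNaseH1-only loci and no other list's locus, against 10.2% of all genes. This was not particular to the mitochondrial list, since 7 of 20 synthetases and 10 of 38 ribosome biogenesis factors did so too. So did 6 of 23 common fragile site genes, 11 of 49 large-subunit mitochondrial ribosomal proteins and 8 of 42 DNA replication and licensing genes. The lowest shares included those of splicing factors and hnRNPs (1 of 44) and small-subunit ribosomal proteins (1 of 32). SLIRP, an RNA-binding partner of LRPPRC, had the highest fold of the mitochondrial list, 10.6, and LRPPRC held 8 loci.

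Other lists were nearer the background. Proteasome subunits had 17 of 31, RNA polymerase II and Mediator subunits 22 of 41, DNA replication and licensing genes 22 of 42 (MCM3 at 10.7), and cohesin, condensin and SMC genes 14 of 24 (NIPBL at 10.6). Oxidative phosphorylation had 21 of 57, common fragile site genes 8 of 23, kinetochore and spindle genes 11 of 35, and large-subunit mitochondrial ribosomal proteins 14 of 49. Fragile site genes (34.8%) had a median length of 1191 kb, beside 33.6% of all genes over 300 kb. Kinetochore and spindle genes (31.4%) had a median of 45.1 kb, beside 37.6% of genes from 30 to 100 kb. The mitochondrial ribosomal list (28.6%) had a median of 8.11 kb, beside 16.9% of genes from 5 to 10 kb. Cholesterol synthesis genes had 13 of 24, with HMGCS1, which makes HMG-CoA, at 7.60 and CYP51A1, a sterol demethylase, at 7.39, but only 31.1% of this list's siRNaseH1 loci were RNaseH1-only, against 62.9% over all protein-coding genes. Genes of other tissues had 3 of 30 (MBP, HBA1 and TG), and extracellular matrix and mesenchymal genes had 2 of 30, FN1 and COL1A1, at folds of 3.97 and 3.65. Expression was not measured in these files.

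**Figure D5:**
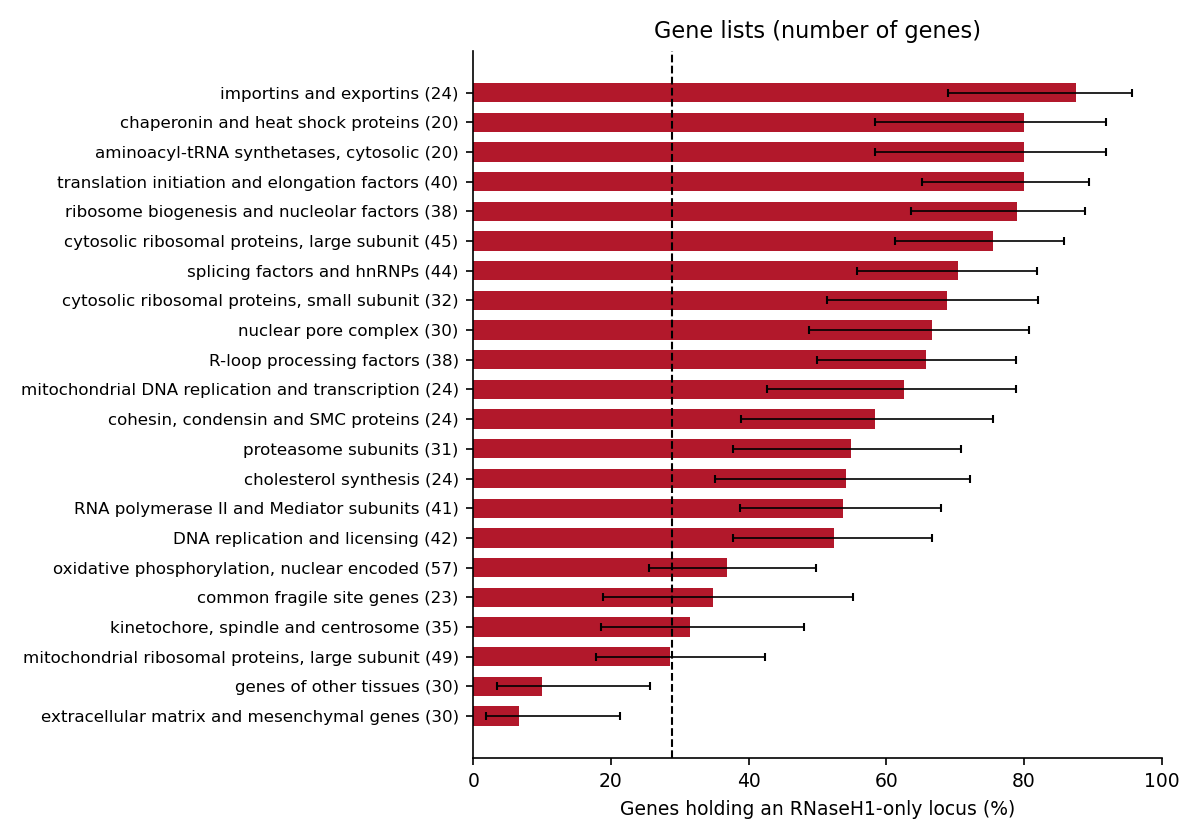
Share of the genes of each list (%) that hold an RNaseH1-only locus, with 95% Wilson intervals and, as a dashed line, the 28.8% of all protein-coding genes. Importins and exportins are highest with 21 of 24 genes, and extracellular matrix and mesenchymal genes lowest with 2 of 30.

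By chromosome, RNaseH1-only loci were densest on chromosome 19, with 12.8 per Mb, and on chromosome 17, with 8.89, and sparsest on chromosome X, with 1.58, against 4.48 overall. As a share of each chromosome's siRNaseH1 loci they were fewest on chromosome 21, at 39.1% (33.2% to 45.3%), followed by chromosome 19 at 55.4% and chromosome 17 at 57.1%, and most on chromosome 15, at 70.7%. Chromosome 19 thus had the highest density of RNaseH1-only loci, at a share of its siRNaseH1 loci below that of the whole list (64.8%).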

How the data were processed

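DRIP-seq peak lists of U2OS cells were used, 1 per transfection, each called on 3 merged IP libraries per the labels. Build hg38, MACS2 2.1.0.20150731, HISAT2 2.2.1, deepTools 3.5.1, SAMtools 1.17, Trim Galore 0.6.10 and Cufflinks are listed, with no role or option, per the submitters' processing notes. Which library served as control, and whether duplicates were kept, is not stated in these sources. The values deposited by the authors are, per peak, a score, a fold enrichment (ratio), a −log10 p-value and a −log10 q-value. Signal tracks, input and IgG were not analysed here, and read depth is not given.

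Loci were compared by overlap of 1 bp. Fragments and local background were recovered from fold, (fragments + 1) / (background + 1), and the Poisson p-value, within 0.001 of every −log10 p below 300. Gene spans and promoter windows came from RefSeq GRCh38.p14. Strand was known for 27195 of the 59098 genes used for location. Among protein-coding genes it was known for 15812 of 19974, and for none on chromosome 8. Genes that overlap were each counted. Of 742 listed symbols, those not found were left out. The loci and gene lists were chosen with earlier results of these data known. Named genes were the 10 with the highest fold, the 10 with the most loci, the 5 densest, the 3 widest loci, up to 3 per list by fold, RNASEH1 and REXO4; some genes that this rule names are not reported here. No promoter windows were available for chromosome 8, so none there is counted or printed. With 1 pooled list per transfection no test was possible, and 95% Wilson intervals cover counting error only. Alternatives changed the overlap, the peak threshold, the list length, the coverage limit, the boundary and the flank. The code was tested on simulated data. Software was SciPy 1.17.1, pandas 2.3.3, Matplotlib 3.10.9 and NumPy 2.4.6 under Python 3.11.15.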

Additional observations from a re-analysis of the deposited data

Results flagged for a closer look

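Peaks outside chromosomes 1 to 22 and X were not used in the comparisons. On unplaced, random and alternate contigs and the mitochondrial genome, 333 of 615 siRNaseH1 peaks overlapped no peak of the other lists, against 180 of 464 siREXO4 peaks and 48 of 165 siCtrl peaks. They were singled out because they are signal in data that the report leaves aside; how many of their reads also match the main chromosomes was not tested.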

How the results depend on the processing

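No paired analysis was possible because each list merges its 3 IP libraries and carries no replicate columns; for the same reason no library could be left out. Of 55 recomputed values, 21 stayed and 34 moved. A count moved when it changed by over 1.5 times, and a share or median fold when it left its 95% counting interval. The median fold (4.86), the number of loci (13579), the genes holding one (5747) and the genes with 10 or more (39) changed as the limits on peaks were raised, since fewer loci are kept. With a fold of at least 5 they were 5.94, 6252, 3443 and 6. With the siRNaseH1 list limited to the length of the siREXO4 list they were 5.75, 6798, 3758 and 6. At 2 times the calling limits they were 5.41, 6474, 3720 and 3, and with limits at the local background, added after seeing the data, 7.56, 1838, 1362 and 0. With a −log10 q of at least 4 the median fold was 5.39 and 18 genes had 10 or more. The share inside genes (64.6%) was 65.4% where a peak within 500 bp ended membership, 66.1% with 1 kb, 65.4% with a fold of at least 5, 63.2% with −log10 q of at least 4, 62.9% with the limited list, and 58.2% and 60.1% under the coverage limits. The share near a boundary (24.5%) was 23.1% with 1 kb, 26.5% with −log10 q of at least 4, 27.4% with the limited list, and 32.1% and 31.1% under the coverage limits. With boundaries at 1 kb the shares were 71.8% inside and 14.6% near, and at 5 kb 47.2% and 46.2%. Of 44 gene list counts, 13 moved by over 1.5 times. With a fold of at least 5 these included R-loop processing factors (25 to 14) and mitochondrial DNA replication and transcription (15 to 8). Without flanks they included oxidative phosphorylation (21 to 12). Above the background of each setting were 19 lists with a fold of at least 5 (background 17.2%) and 18 without flanks (25.4%). At the main setting there were 19 (28.8%).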

Other observations

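RNaseH1-only loci overlapped 14 of 1558 miRNA hairpins (0.899%). The highest fold was 9.59, at MIR4259. Others included MIR191, at a fold of 6.11, MIR574, at 5.69, and MIR92B, at 5.04, which were not chosen by rank.

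The 1 Mb window with the most RNaseH1-only loci was 49 to 50 Mb of chromosome 19, with 42 loci at a median background of 2.86 fragments. The window from 143 to 144 Mb of chromosome 1 held 31 loci at a median background of 60.7 fragments and a median fold of 2.35. Over the genome, 72 RNaseH1-only loci (0.530%) had a local background of 10 or more fragments. OR51B5, an olfactory receptor gene with an annotated span of 165335 bp, held 8 RNaseH1-only loci with folds of 4.24 to 6.50 and no locus of another list.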
